A study of Mus musculus with 12 samples.

Results

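RAW264.7 cells, a mouse macrophage line, were compared after 24 h with palmitic acid alone and after 24 h with recombinant FABP4 alone. The 2 groups hold 3 arrays each, 6 of the 12 arrays of the study, and were taken from the sample labels. Palmitic acid was given at 0.2 mM without FABP4, and FABP4 at 200 nM without palmitic acid. The other 6 arrays, of cells given both agents and of control cells given neither (3 each), entered the model and are set beside the results where named. Medium for treatment held 0.5% BSA free of fatty acids in all 4 groups, cells were grown with 10% serum, and 50 ng of total RNA was labelled per array. No genotype was altered, and the labels name neither the species of the recombinant protein nor its source. Whether replicates were separate cultures is not stated, so p-values cover the spread among these arrays alone, part or all of which may be technical.

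Palmitic acid is a saturated fatty acid that macrophages take up, activate to its coenzyme A ester and then burn in mitochondria, store in lipid droplets or build into membranes and ceramides. FABP4, also called aP2, is a carrier of fatty acids inside adipocytes and macrophages that is also released into the blood. Fatty acids act as ligands of the PPAR receptors, which drive genes of fat oxidation and storage, while LXR receptors drive export of cholesterol and SREBP factors drive synthesis of lipids. Each group received 1 of the 2 agents, so the comparison sets a fatty acid load against a fatty acid carrier with no added load.

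The arrays of the 2 groups were not laid out evenly. FABP4 replicate 1 was on slide 1 together with the 3 control arrays. FABP4 replicates 2 and 3 and palmitic acid replicates 1 and 2 shared slide 2 and its row 1, and palmitic acid replicate 3 was in row 2 of slide 2 with the 3 arrays of both agents. Within row 1 the array column separates the groups, so column and treatment cannot be told apart there. On the leading principal component of the tested genes, which held 31.7% of the variance, palmitic acid arrays 1 to 3 stood at 9.4, 18.8 and 14, and FABP4 arrays 2 and 3 at 2.6 and 3.8, whereas FABP4 array 1 stood at -27.7, beyond the control arrays of its slide (-22.1 to -15.5). On the second component (10.9% of the variance) FABP4 arrays 2 and 3 stood apart at 20.7 and 19.2. Every other array, FABP4 array 1 included, lay between -8 and 1.3 there. FABP4 arrays 2 and 3 are the only FABP4 arrays of slide 2. Each comparison was therefore made with all 6 arrays and then within slide 2 (palmitic acid 1 to 3 against FABP4 2 and 3). The third fit was within slide 2 and row 1 (2 arrays against 2). The spread was pooled over the 4 groups in each of these 3 fits. FABP4 array 1 adds nothing to the difference or the spread of the second fit, which equals leaving that array out. Neither it nor palmitic acid array 3 adds to those of the third fit. The macrophage label held against its markers: 9 of 10 (all but Mertk, which was not detected) were well above background on all 6 arrays, and their summed level relative to the array's 75th percentile was 951 to 988 on palmitic acid arrays and 908 to 957 on FABP4 arrays.

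Palmitic acid and FABP4 cells differed in 762 of 17669 genes tested (4.31%) at a Benjamini-Hochberg adjusted p under 0.05 in limma. Of these, 441 (2.5% of genes tested) were higher and 321 (1.82%) lower in palmitic acid. These shares are the background for the counts of list members below. Most differences were small. The median difference among the higher genes was 0.35 and among the lower genes -0.36 on the log2 scale, and 22 higher and 3 lower genes differed by more than 1. For all 762 genes the arrays of the 2 groups did not overlap, which held for 21.8% of all genes tested (11.9% higher and 9.95% lower). The median difference over all tested genes was 0.02. Without scaling between arrays 179 genes passed, 128 of them higher and 51 lower. With the spread estimated from the 6 arrays of the 2 groups alone, 83 genes passed, 61 higher and 22 lower.

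Holding slide and row fixed lowered the number of genes called. Within slide 2, 510 genes (2.89%) passed, 345 (1.95%) higher and 165 (0.934%) lower, and 433 of them were among the 762. Within slide 2 and row 1, 321 genes (1.82%) passed, 200 (1.13%) higher and 121 (0.685%) lower. In all 3 fits 268 genes passed (1.52%), of which 174 (0.985%) were higher and 94 (0.532%) lower in palmitic acid. When the 4 arrays of row 1 were fitted alone, limma called 0 genes (0%), with 1937 at an unadjusted p under 0.05. All 762 genes kept their sign in each of these fits, the 4-array fit included. These fits take their differences from the same arrays, which did not overlap for these genes, so no sign could turn. The array left out also changed the count: 445 genes passed without FABP4 replicate 2, and 408, 374 and 388 without palmitic acid replicates 1, 2 and 3. No single omission among the 12 arrays left more than 646.

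**Figure D1:**
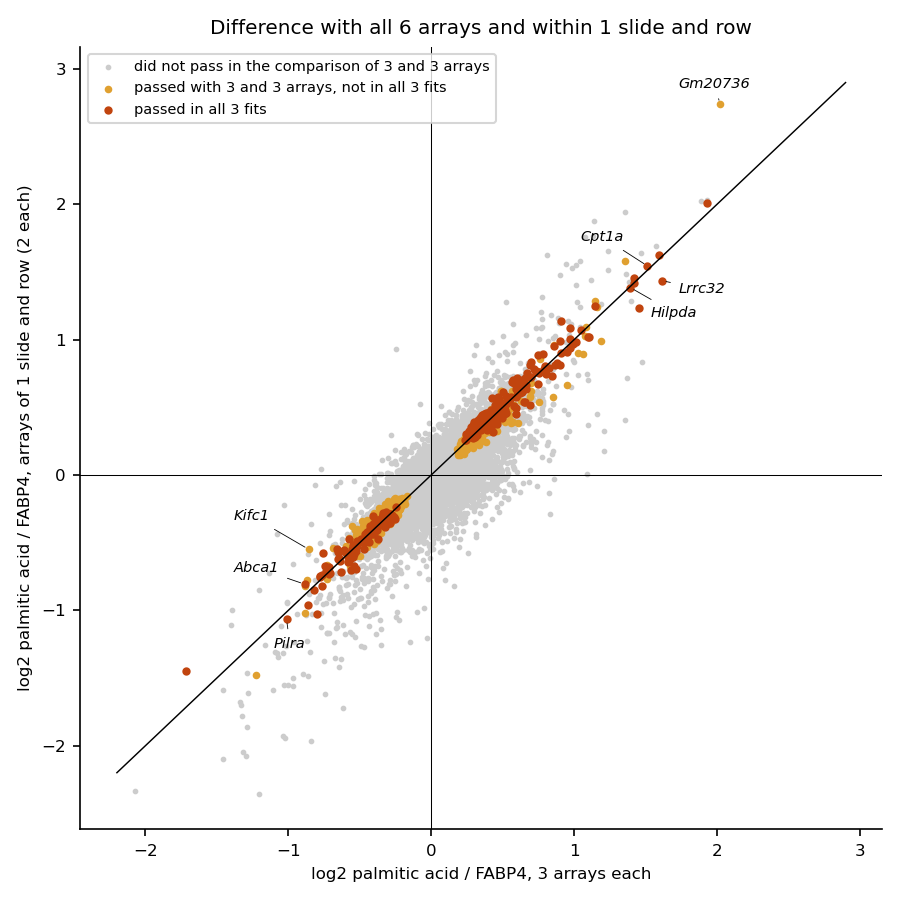
Each point is a gene, with its log2 difference between palmitic acid and FABP4 arrays from all 6 arrays on the x axis and from the 4 arrays of 1 slide and row on the y axis, and the line marks equal values. Red points passed in all 3 fits (268 genes), orange points passed with all 6 arrays but not in all 3 fits, and Kifc1 lies nearer 0 on the y axis (-0.55) than on the x axis (-0.86).

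Genes of lipid storage and fat burning were among those with the largest differences. Levels below are log2 of a probe's processed signal relative to the 75th percentile of its array, so that 0 equals that percentile and each unit is a doubling, and differences are palmitic acid minus FABP4. Plin2, which encodes the coat protein of macrophage lipid droplets, had levels of 8.34, 8.35 and 8.44 on the palmitic acid arrays, against 7.02, 6.88 and 6.97 on the FABP4 arrays. The 2 groups lay far apart with no overlap, and FABP4 array 1 of the other slide did not stand out. The difference was 1.42 ± 0.06 (SE, adjusted p = 1.7e-06), a fold of 2.68. Hilpda, a small lipid droplet protein that inhibits triglyceride lipase and responds to hypoxia, had 6.05, 6.09 and 6.11 on the palmitic acid arrays, against 4.70, 4.64 and 4.73 on the FABP4 arrays. The arrays of each group lay close together and the groups far apart, and the difference was 1.39 ± 0.05 (SE, adjusted p = 6.01e-07), with a further Hilpda probe at 1.38.

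Cpt1a encodes the carnitine palmitoyltransferase of the outer mitochondrial membrane, the gate for burning long-chain fats. Its levels were 1.78, 1.83 and 1.79 on the palmitic acid arrays, against 0.34, 0.28 and 0.23 on the FABP4 arrays. All 3 palmitic acid arrays were high and alike, and the difference was 1.51 ± 0.06 (SE, adjusted p = 6.01e-07), a fold of 2.85 with a 95% interval of 2.62 to 3.12. Plin2, Hilpda and Cpt1a gave 1.42, 1.39 and 1.55 within slide 2 and row 1, each past the threshold there. Their probes lie in mm9 at chr4:86302847-86302906 (minus strand), chr6:29225127-29225186 (plus) and chr19:3385374-3385433 (plus). Which part of the transcript they read was not analysed here.

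Among 18 tested lipid droplet and triglyceride genes, 4 rose and 0 fell (1 was called lower with quantile normalization), and the list's median difference was 0.02, no higher than over all genes. Beside Plin2 and Hilpda these were Nceh1, a cholesterol ester hydrolase with a difference of 0.34 ± 0.07 (SE, adjusted p = 0.0331), and Soat1, which esterifies cholesterol (0.28). Nceh1 lost its call when any of 7 single arrays was left out, the highest adjusted p being 0.0991 without palmitic acid replicate 1, and Soat1 had an adjusted p of 0.106 within slide 2. The triglyceride-forming enzymes Dgat1 and Dgat2 differed by -0.04 (95% interval -0.22 to 0.15) and 0.00 (-0.16 to 0.16). Pnpla2, the lipase that Hilpda inhibits, differed by 0.06 (-0.08 to 0.21).

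The list of fatty acid oxidation and PPAR targets had 25 tested genes, of which 2 rose (Cpt1a and Fabp4) and 1 fell, with a median difference of 0.03. Echs1, an enoyl-CoA hydratase of mitochondrial beta-oxidation, had 2.59, 2.56 and 2.61 on the palmitic acid arrays, against 2.99, 2.87 and 2.87 on the FABP4 arrays. It was lower on every palmitic acid array, with a difference of -0.32 ± 0.05 (SE, adjusted p = 0.011), and it did not pass within row 1 (adjusted p = 0.0573). Slc25a20, the carnitine carrier of the inner membrane, differed by 0.53 with an adjusted p of 0.111. Acadm, a medium-chain dehydrogenase, differed by -0.08 with an adjusted p of 0.488.

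The RefSeq windows of 250 bases upstream of Plin2 and Cpt1a (assembly GRCm38.p6, written 5′ to 3′ on the gene's strand) are shown because these genes had the largest storage and oxidation differences. Capitals mark AGGTCA, the half-site read by PPAR and other nuclear receptors, here as its reverse complement TGACCT. The windows lie at chr4:86670060-86670309 (minus strand) and chr19:3323051-3323300 (plus strand).
Plin2: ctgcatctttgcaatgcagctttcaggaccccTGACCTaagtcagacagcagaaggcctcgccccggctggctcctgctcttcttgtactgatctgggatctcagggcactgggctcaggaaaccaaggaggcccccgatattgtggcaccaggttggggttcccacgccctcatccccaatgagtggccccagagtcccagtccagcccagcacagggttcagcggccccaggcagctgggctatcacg
Cpt1a: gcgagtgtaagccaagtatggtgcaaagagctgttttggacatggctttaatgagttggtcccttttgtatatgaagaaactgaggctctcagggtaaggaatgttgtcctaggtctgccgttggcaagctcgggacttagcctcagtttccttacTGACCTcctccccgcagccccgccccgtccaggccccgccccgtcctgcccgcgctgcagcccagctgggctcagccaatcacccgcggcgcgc
Each window holds 1 match, whose first base is at -218 in Plin2 and -94 in Cpt1a, counted back from -1 beside the start. AGGTCA on either strand occurs in 14% of all RefSeq windows and in 13.5% of those of tested genes. A direct repeat of the half-site with 1 base between the repeats is in neither window and in 0.0335% of all. Hilpda has a window without the half-site, and Fabp4 had none in the table.

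Fabp4 itself was higher in cells given palmitic acid than in cells given FABP4 protein. Its own messenger RNA had levels of 2.27, 2.02 and 2.26 on the palmitic acid arrays, against 1.74, 1.61 and 1.54 on the FABP4 arrays. The groups did not overlap, and the difference was 0.56 ± 0.07 (SE, adjusted p = 0.0033), with 0.61 within slide 2 and 0.58 within row 1. Control arrays had 1.65, 1.60 and 1.64 and so lay among the FABP4 arrays, while cells given both agents had 2.40, 2.33 and 2.39. The probe reads transcript of the cells, not the added protein.

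Of 16 tested genes of fatty acid binding, uptake and activation, 3 rose and 0 fell, with a median of 0.04. Beside Fabp4 these were Fabp3, the heart-type carrier, with 3.74, 3.79 and 3.88 on the palmitic acid arrays, against 3.54, 3.31 and 3.42 on the FABP4 arrays, and the transport protein Slc27a1. Fabp3 differed by 0.38 ± 0.07 (SE, adjusted p = 0.0132) and also passed within slide 2 and row 1 (0.41). Slc27a1 differed by 0.34 ± 0.08 (SE, adjusted p = 0.0484) and passed neither within slide 2 (adjusted p = 0.111) nor within row 1 (adjusted p = 0.211). The uptake receptor Cd36 differed by 0.10 with a 95% interval of -0.04 to 0.23.

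**Figure D2:**
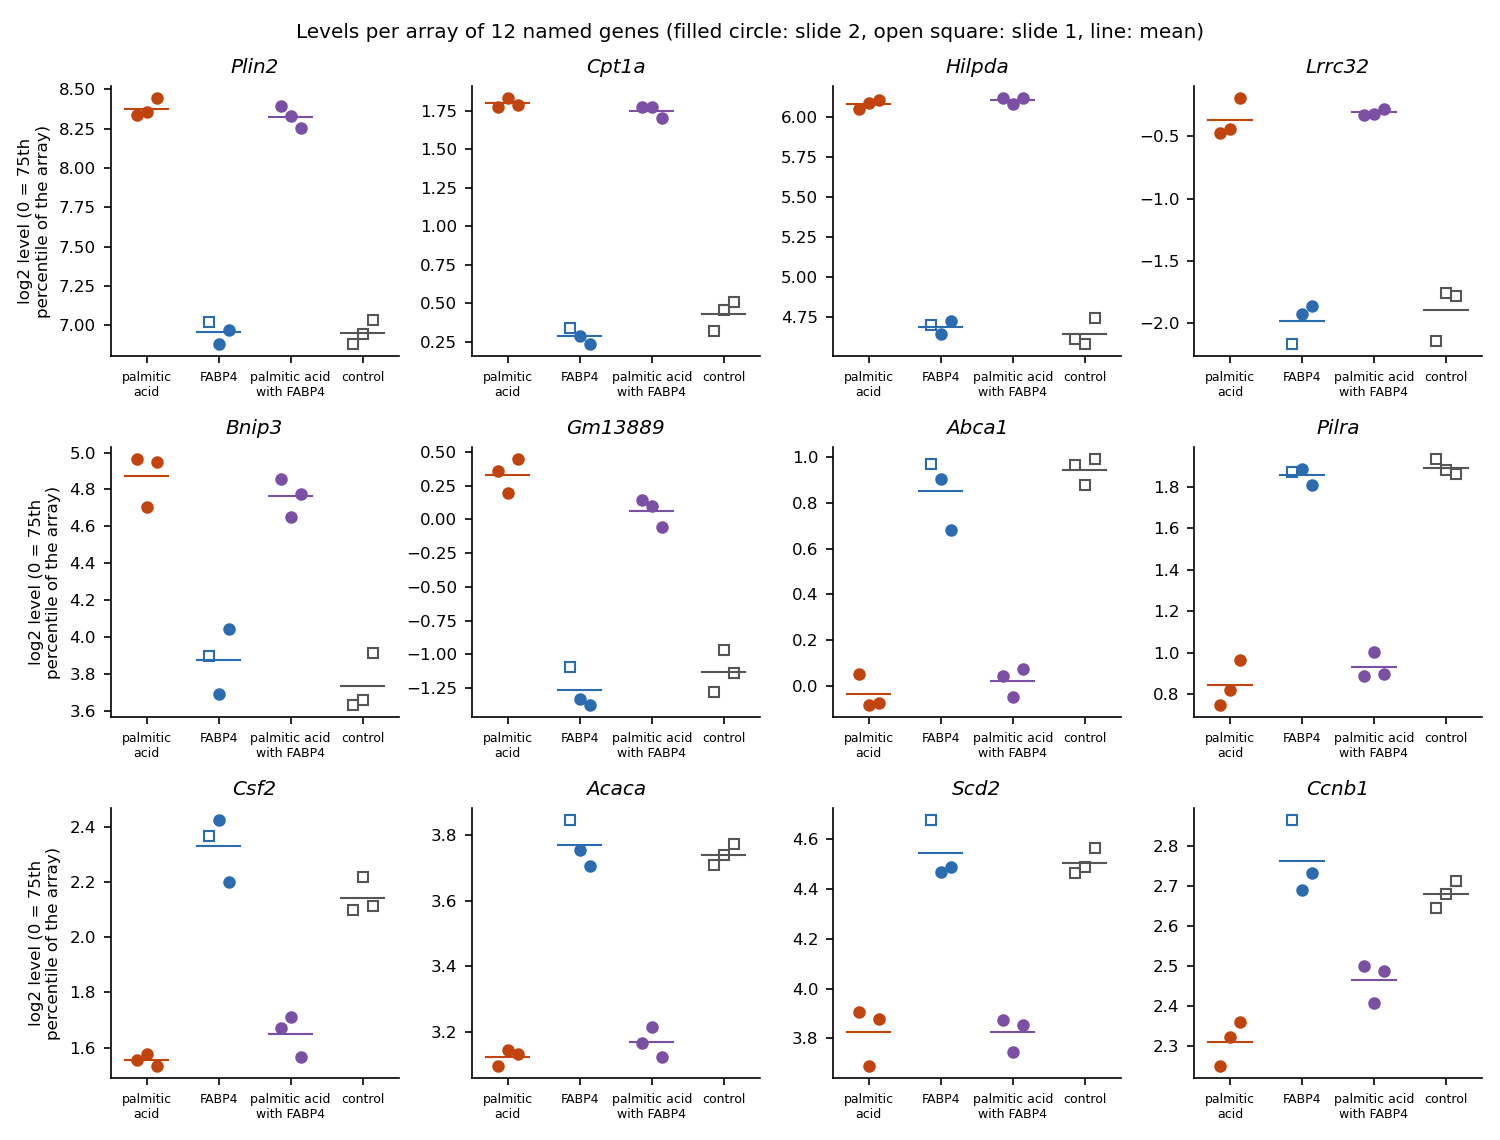
Log2 levels of 12 named genes on each array, with a line at the group mean, filled circles for slide 2 and open squares for slide 1, and groups ordered as palmitic acid, FABP4, both agents and control. Palmitic acid arrays of Plin2 lie between 8.34 and 8.44 and FABP4 arrays between 6.88 and 7.02, and for Abca1 the order is turned.

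Cholesterol exporters and several enzymes of fatty acid synthesis were lower in palmitic acid. Abca1, which loads cholesterol onto apolipoprotein A-I, had 0.05, -0.08 and -0.07 on the palmitic acid arrays, against 0.97, 0.90 and 0.68 on the FABP4 arrays. Its difference was -0.89 ± 0.08 (SE, adjusted p = 0.000328), with no overlap and with -0.81 within row 1. Abcg1, which exports cholesterol to HDL, had 2.46, 2.30 and 2.44 on the palmitic acid arrays, against 3.23, 3.16 and 3.02 on the FABP4 arrays, a difference of -0.74 ± 0.07 (SE, adjusted p = 0.000387). Of 17 tested LXR targets and efflux genes, 3 fell (Abca1, Abcg1 and Scd1) and 0 rose, and the median was -0.02. The other 14 did not pass. Among them Apoe, an apolipoprotein, differed by -0.02 (95% interval -0.14 to 0.09), Nr1h3, the gene of LXR alpha, by -0.16 with an adjusted p of 0.209, and Npc1, which moves cholesterol out of lysosomes, by 0.25 with an adjusted p of 0.0644. Mylip had a wide 95% interval of -1.09 to 1.03.

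In the fatty acid synthesis and desaturation list, 6 of 18 tested genes fell and 0 rose, against 1.82% of all genes that fell. Acaca, acetyl-CoA carboxylase, which makes the malonyl-CoA that feeds synthesis and inhibits Cpt1, had 3.10, 3.14 and 3.13 on the palmitic acid arrays, against 3.85, 3.75 and 3.71 on the FABP4 arrays. The difference was -0.64 ± 0.05 (SE, adjusted p = 0.000153), and 3 further Acaca probes gave -0.70 to -1.25. Scd2, a stearoyl-CoA desaturase that puts a double bond into saturated chains, had 3.91, 3.69 and 3.88 on the palmitic acid arrays, against 4.68, 4.47 and 4.49 on the FABP4 arrays. It differed by -0.72 ± 0.08 (SE, adjusted p = 0.000875). Elovl6, which lengthens palmitate, had -1.06, -1.03 and -1.14 on the palmitic acid arrays, against -0.15, -0.52 and -0.49 on the FABP4 arrays, and FABP4 array 1 was the highest of the 6. Its difference was -0.69 ± 0.12 (SE, adjusted p = 0.012) with all arrays, -0.57 within slide 2 and -0.54 with an adjusted p of 0.0753 within row 1. Fasn fell by 0.53, Scd1 by 0.30 and Acss2 by 0.30. Scd1, the sister desaturase, did not pass within slide 2 (adjusted p = 0.114) and was lost when any of 11 single arrays was left out. Srebf1, the factor that drives many of these genes, differed by -0.10 with a wide 95% interval of -0.76 to 0.56. Within slide 2 the list had 3 falls and within row 1 it had 4, and 3 to 5 members fell when single arrays were left out.

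In the cholesterol synthesis list 1 of 26 tested genes rose and 2 fell, with a median of 0.03. Of those that fell, Idi1, isopentenyl diphosphate isomerase, differed by -0.42 ± 0.09 (SE, adjusted p = 0.0318). It did not pass within slide 2 (adjusted p = 0.0608) and was lost in 7 of the leave-outs. Srebf2, the factor that drives the pathway, was higher by 0.40 ± 0.07 (SE, adjusted p = 0.0108), but a second Srebf2 probe gave 0.13 with an unadjusted p of 0.0921. Srebf2 did not pass within row 1 (adjusted p = 0.0778).

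Sphingolipid genes moved in both directions, 2 of 23 rising and 2 falling, with a median of 0.01. Sphk1, which forms sphingosine 1-phosphate, had 1.28, 1.09 and 1.33 on the palmitic acid arrays, against 0.25, 0.36 and 0.40 on the FABP4 arrays. Every palmitic acid array was well above every FABP4 array, and the difference was 0.90 ± 0.07 (SE, adjusted p = 0.000171), with 0.82 from a second probe. The ceramide synthases Cers4 and Cers5 were lower, with differences of -0.43 ± 0.07 (SE, adjusted p = 0.00788) and -0.33 ± 0.04 (SE, adjusted p = 0.00367), of which Cers4 did not pass within row 1 (adjusted p = 0.0627). Ormdl3, which restrains the first enzyme of sphingolipid synthesis, rose by 0.22 with all arrays and had an adjusted p of 0.0572 within slide 2.

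Of 25 tested hypoxia-response genes 10 rose (40.0%, against 2.5% of all genes) and 0 fell, while 1 was called lower with quantile normalization. The list's median difference was 0.37, against 0.02 over all genes. Bnip3, a mitochondrial receptor for mitophagy, had 4.96, 4.70 and 4.95 on the palmitic acid arrays, against 3.90, 3.69 and 4.04 on the FABP4 arrays. The lowest palmitic acid array stood above the highest FABP4 array by more than either group's range, and the difference was 0.99 ± 0.11 (SE, adjusted p = 0.00132), with 2 further probes at 0.83 and 0.92. Ndrg1, a stress-induced gene much used as a marker of hypoxia, had 5.64, 5.60 and 5.69 on the palmitic acid arrays, against 4.92, 4.75 and 4.88 on the FABP4 arrays. It differed by 0.80 ± 0.06 (SE, adjusted p = 0.000171) and by 0.81 within row 1. Selenbp1, which encodes a selenium-binding protein, had 0.29, 0.64 and 0.47 on the palmitic acid arrays, against -0.32, -0.34 and -0.30 on the FABP4 arrays, a difference of 0.79 ± 0.09 (SE, adjusted p = 0.00162).

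The other 7 members that rose were Adm (1.06), which encodes the vasodilator adrenomedullin, Ankrd37 (0.76), the mTORC1 inhibitor Ddit4 (0.75), the endoplasmic reticulum oxidase Ero1a (0.57), the mitochondrial adenylate kinase Ak4 (0.49), the angiogenic factor Vegfa (0.45) and Bnip3l (0.41), a second mitophagy receptor. Within slide 2, 8 members passed with a median of 0.26, and Adm (adjusted p = 0.0553) and Ankrd37 (adjusted p = 0.0652) did not. Within row 1, 6 passed with a median of 0.25. Fewer passed without FABP4 replicate 2 (5), palmitic acid replicate 1 (6) or palmitic acid replicate 3 (5). The transcript of Hif1a, the oxygen-regulated subunit of the factor, differed by -0.12 with an adjusted p of 0.496. Hilpda, described above, is a hypoxia gene as well and was counted with lipid droplets. P4ha2 showed 0.93 with an adjusted p of 0.654, its probe varying widely.

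The windows upstream of Bnip3 and Ankrd37 are shown because both genes rose and both windows hold several matches to the core sequence that HIF reads. Capitals mark ACGTG or GCGTG on either strand, so CACGT and CACGC are marked too, and overlapping matches run together. The windows lie in GRCm38.p6 at chr7:138909507-138909756 and chr8:45999851-46000100, both on the minus strand.
Bnip3: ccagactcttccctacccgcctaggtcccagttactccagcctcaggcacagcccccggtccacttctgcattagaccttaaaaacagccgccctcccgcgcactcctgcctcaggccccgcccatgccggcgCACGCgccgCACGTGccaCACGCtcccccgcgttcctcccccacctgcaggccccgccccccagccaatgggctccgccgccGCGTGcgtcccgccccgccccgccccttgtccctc
Ankrd37: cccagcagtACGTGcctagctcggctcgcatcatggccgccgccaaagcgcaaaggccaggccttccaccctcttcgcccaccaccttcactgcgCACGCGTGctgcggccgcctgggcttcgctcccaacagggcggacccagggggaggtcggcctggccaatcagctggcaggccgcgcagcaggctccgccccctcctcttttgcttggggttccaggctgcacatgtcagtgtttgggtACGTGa
Bnip3 has 5 matches and Ankrd37 4. Of the 10 genes that rose, 8 had a window in the table and all 8 held a match, but so did 11 of 12 members that did not pass. The same letters were found in 59.5% of the windows of 9688 tested genes and in 38.6% of all 32851 windows.

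Glycolysis and glucose uptake rose in 4 of 26 tested genes with 0 falling, and the median was 0.08. Eno2, an enolase isoform, had 2.22, 2.07 and 2.31 on the palmitic acid arrays, against 1.22, 1.01 and 1.32 on the FABP4 arrays, a difference of 1.01 ± 0.10 (SE, adjusted p = 0.000682). Hk3, a hexokinase of white blood cells, differed by 0.48 ± 0.05 (SE, adjusted p = 0.000746), and both genes passed in all 3 fits. Pfkl, the liver-type phosphofructokinase, and the lactate exporter Slc16a3 rose by 0.50 and 0.37 and did not pass within slide 2 (adjusted p = 0.0592 and 0.0691). Ldha, lactate dehydrogenase, and the glucose transporter Slc2a1 differed by 0.03 (95% interval -0.06 to 0.12) and 0.07 (-0.11 to 0.24). Pdk1, which blocks entry of pyruvate to mitochondria, had 0.49 with an adjusted p of 0.0596.

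Of 31 tested oxidative phosphorylation genes 0 passed and 0 were under an unadjusted p of 0.05 in limma, and their differences ran from -0.12 to 0.09 with a median of -0.03. Uqcrq, a subunit of complex III and the member with the smallest p, had 7.58, 7.63 and 7.68 on the palmitic acid arrays, against 7.79, 7.66 and 7.75 on the FABP4 arrays. These arrays overlap, and the difference was -0.10 ± 0.05 (SE, adjusted p = 0.275). With quantile normalization 1 member was called lower.

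**Figure D3:**
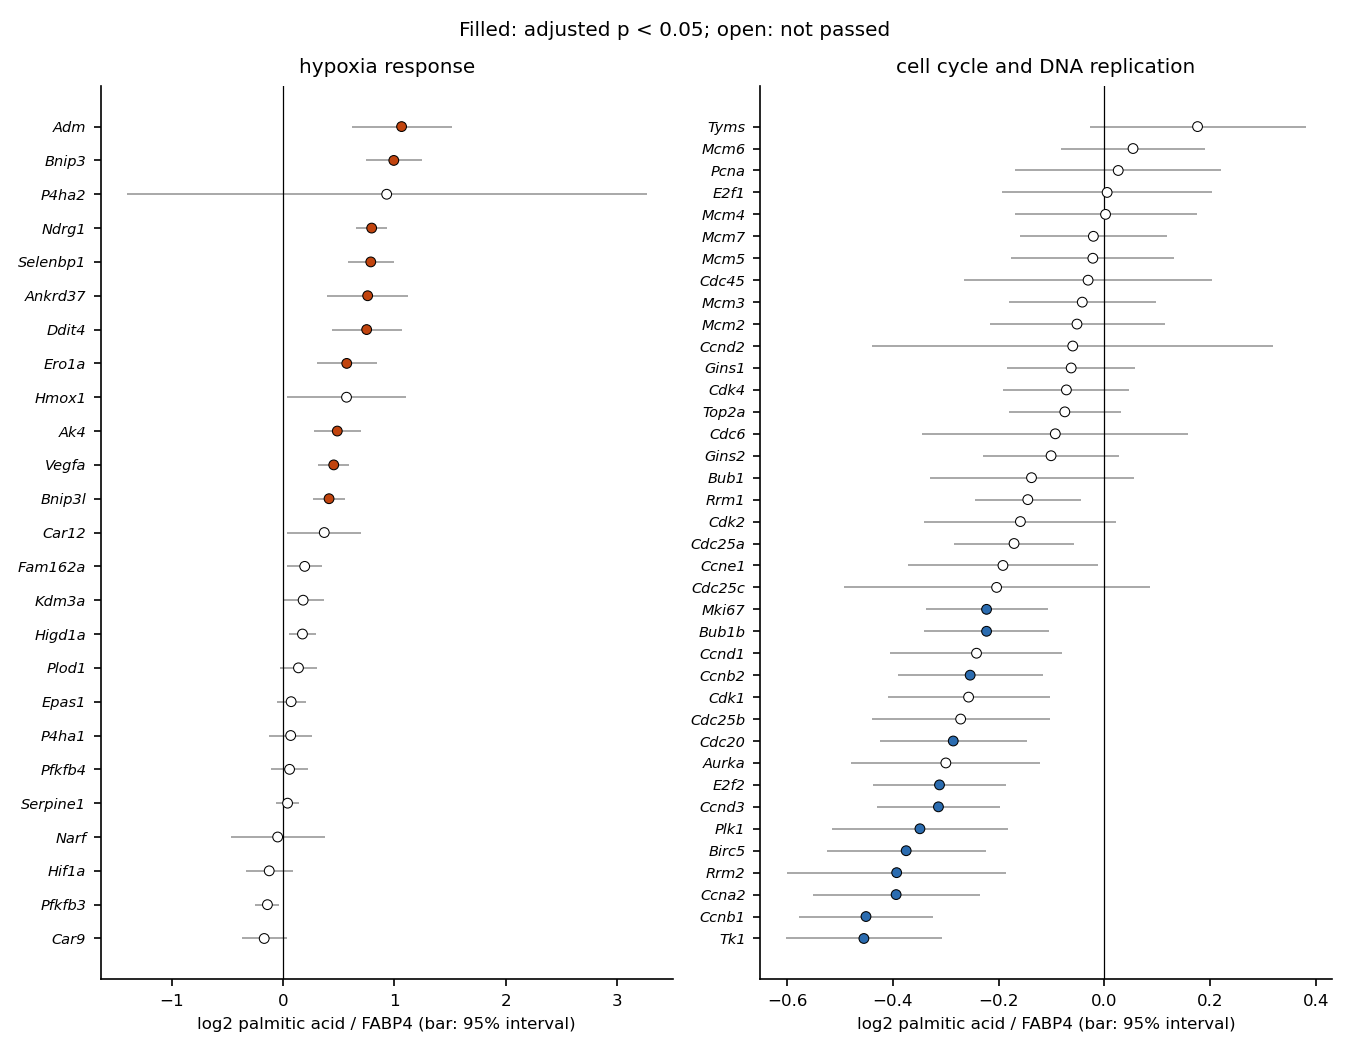
Log2 differences between palmitic acid and FABP4 arrays with 95% intervals for the tested members of the hypoxia list (left, 25 genes) and the cell cycle list (right, 38 genes), filled where the adjusted p was under 0.05. The 10 filled hypoxia genes all lie right of 0 and the 12 filled cell cycle genes left of 0, and P4ha2 has the widest interval on the left.

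Stress genes of the endoplasmic reticulum and the ATF4 pathway rose in part. In the unfolded protein response 3 of 27 tested genes rose and 0 fell, the median being 0.06. Dnajb9, a co-chaperone made under endoplasmic reticulum stress, had 2.12, 1.91 and 2.05 on the palmitic acid arrays, against 1.40, 1.38 and 1.20 on the FABP4 arrays, a difference of 0.70 ± 0.07 (SE, adjusted p = 0.000682). Syvn1, a ubiquitin ligase that clears misfolded proteins, differed by 0.28 ± 0.06 (SE, adjusted p = 0.0341), and Hspa5, the chaperone BiP, by 0.21 ± 0.05 (SE, adjusted p = 0.0447). Syvn1 lost its call in 10 and Hspa5 in 11 of the 12 leave-outs, with adjusted p-values up to 0.105 and 0.119. Xbp1 differed by 0.06 with a 95% interval of -0.07 to 0.18.

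In the ATF4 and amino acid list 5 of 30 tested genes rose and 0 fell, with a median of 0.01. Atf3, a stress-induced repressor, had 7.21, 7.26 and 7.26 on the palmitic acid arrays, against 6.76, 6.69 and 6.69 on the FABP4 arrays. The arrays of each group were nearly equal, and the difference was 0.53 ± 0.04 (SE, adjusted p = 0.000223). Ppp1r15a, which restores protein synthesis by dephosphorylating eIF2 alpha, had 5.30, 5.38 and 5.42 on the palmitic acid arrays, against 4.71, 4.69 and 4.71 on the FABP4 arrays. It differed by 0.66 ± 0.06 (SE, adjusted p = 0.000352). Slc3a2, the heavy chain of amino acid transporters, differed by 0.52 ± 0.06 (SE, adjusted p = 0.000875), and Gdf15, a secreted stress cytokine, by 1.05 ± 0.13 (SE, adjusted p = 0.00169). These 4 genes passed in all 3 fits, and Slc1a4 (0.28) did not pass within slide 2 (adjusted p = 0.0926). Ddit3, the stress factor CHOP, had 0.33 with an adjusted p of 0.0642, and Atf4 0.07 with an adjusted p of 0.50.

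Among p53 targets 2 of 19 tested genes rose, 0 fell and the median was -0.04. Plk2, a kinase induced by stress, had 3.04, 2.93 and 3.09 on the palmitic acid arrays, against 2.19, 2.02 and 1.94 on the FABP4 arrays, a difference of 0.97 ± 0.08 (SE, adjusted p = 0.000225). Mdm2, the ubiquitin ligase of p53, differed by 0.39 ± 0.06 (SE, adjusted p = 0.00919), and both passed in all 3 fits. Cdkn1a, the cell cycle inhibitor p21, had 0.21 with an adjusted p of 0.109. Antioxidant genes under NRF2 gave 2 rises and 1 fall among 24: the peroxiredoxin Prdx1 at 0.21 ± 0.04 (SE, adjusted p = 0.0204), the glutathione transferase Gstm1 at 0.25 ± 0.06 (SE, adjusted p = 0.0475), and the heme transporter Slc48a1 at -0.22 ± 0.04 (SE, adjusted p = 0.0233). None of these 3 passed within row 1. Of 14 heat shock genes 0 passed, 3 were under an unadjusted p of 0.05 in limma, and Dnajb1 came nearest at -0.24 ± 0.06 (SE, adjusted p = 0.053). With quantile normalization 3 heat shock genes were called lower.

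Kinase-signalling and immediate-early genes were split. Of 33 tested, 5 rose and 4 fell (27.3% called, median -0.03). Nr4a1, an orphan nuclear receptor of the immediate-early class, had 1.99, 1.92 and 2.19 on the palmitic acid arrays, against 1.13, 1.13 and 1.30 on the FABP4 arrays, a difference of 0.84 ± 0.09 (SE, adjusted p = 0.000875). Dusp4, a nuclear phosphatase of MAP kinases, was higher by 0.50 ± 0.07 (SE, adjusted p = 0.0031), while Dusp2, a related phosphatase, was lower at -0.38 ± 0.05 (SE, adjusted p = 0.00188). Dusp6, an ERK phosphatase, fell by 0.45, and Klf2, a restraining factor in macrophages, fell by 0.73 but had an adjusted p of 0.0577 within slide 2. Nr4a1, Dusp4, Dusp2 and Ier3 (0.43) passed in all 3 fits. Without FABP4 replicate 1, or any one of palmitic acid replicates 1 to 3, the falls numbered 2, and without FABP4 replicate 2 the rises numbered 3. Egr1 and Fos differed by -0.29 (adjusted p = 0.0804) and 0.06 (adjusted p = 0.668).

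Several cytokine transcripts were lower in palmitic acid than in FABP4. Of 37 tested genes of the cytokine and NF-kB list 7 fell and 1 rose (21.6% called, against 4.31% of all genes), with a median of -0.03. Csf2, which encodes the growth factor GM-CSF, had 1.55, 1.58 and 1.53 on the palmitic acid arrays, against 2.37, 2.42 and 2.20 on the FABP4 arrays. The palmitic acid arrays were nearly equal and all below the FABP4 arrays, and the difference was -0.78 ± 0.07 (SE, adjusted p = 0.000295), -0.76 within slide 2 and -0.75 within row 1. Csf3, the growth factor of neutrophils G-CSF, went the other way with 6.34, 6.42 and 6.38 on the palmitic acid arrays, against 5.98, 6.08 and 6.07 on the FABP4 arrays, a difference of 0.34 ± 0.06 (SE, adjusted p = 0.00985). Lcn2, an iron-scavenging acute-phase protein, was lower at -0.36 ± 0.07 (SE, adjusted p = 0.0142).

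The remaining falls were 0.34 for Il1a, 0.31 for Irak3, a brake on Toll-like receptor signalling, 0.30 for Saa3, 0.26 for Tnfaip3, a brake on NF-kB, and 0.23 for Il1b. Il1b levels were 8.42, 8.42 and 8.54 on the palmitic acid arrays, against 8.70, 8.68 and 8.68 on the FABP4 arrays, which do not overlap but lie close, and its call was lost in 8 of the leave-outs and within slide 2 (adjusted p = 0.0699). Within slide 2, 3 members fell and within row 1 only Csf2 and Saa3 did, while the rise of Csf3 did not pass there (adjusted p = 0.0722). With FABP4 replicate 1 or 2 left out 3 fell, and with palmitic acid replicate 1 or 2 left out 3 and 2 fell. Without the arrays of both agents, replicate 1 or 2, 4 fell. Tnf differed by -0.19 with an adjusted p of 0.104 and Il6 by -0.09 with an adjusted p of 0.619.

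Chemokines gave 1 fall among 16 tested, in Ccl6 at -0.25 ± 0.05 (SE, adjusted p = 0.0219). Ccl6 did not pass within row 1 (adjusted p = 0.0856) and lost its call in 4 leave-outs, with an adjusted p up to 0.0712 without palmitic acid replicate 2. Ccl2 differed by 0.02 with a 95% interval of -0.07 to 0.11. Toll-like receptors and their partners gave 2 rises among 19. Tlr13, which senses bacterial ribosomal RNA in mice, differed by 0.32 ± 0.06 (SE, adjusted p = 0.0176) and passed in all 3 fits, but lost its call in 4 leave-outs (up to 0.0605 without palmitic acid replicate 3). Ticam1, the adaptor TRIF, differed by 0.27 ± 0.06 (SE, adjusted p = 0.0414) and did not pass within slide 2. Tlr4 differed by -0.15 with an adjusted p of 0.341. In the inflammasome list 1 of 15 fell, which was Il1b again, and Nlrp3 had -0.32 with an adjusted p of 0.255.

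In the interferon list 3 of 35 tested genes rose and 0 fell (8.6% called, against 4.31% of all genes). A difference above 0 was found in 27, and the median was 0.06 against 0.02 over all genes. Ifnb1, the gene of interferon beta, had 1.03, 0.79 and 0.84 on the palmitic acid arrays, against 0.56, 0.49 and 0.45 on the FABP4 arrays, a difference of 0.39 ± 0.07 (SE, adjusted p = 0.0111). Rsad2, the antiviral enzyme viperin, and Igtp, an immunity GTPase, differed by 0.26 ± 0.05 (SE, adjusted p = 0.0201) and 0.28 ± 0.06 (SE, adjusted p = 0.0317). All 3 also passed within slide 2 and within row 1, where 4 members passed. Rsad2 lost its call in 4 and Igtp in 7 of the 12 leave-outs, with adjusted p-values up to 0.0738 and 0.0946. Isg15 differed by 0.04 with a 95% interval of -0.06 to 0.14. Without scaling between arrays 0 members were called.

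Part of the cell cycle list fell. Of 38 tested members 12 fell and 0 rose (31.6% called, against 1.82% of all genes that fell). A difference below 0 was found in 33, and the median was -0.17 against 0.02 over all genes. Ccnb1, cyclin B1 of mitotic entry, had 2.25, 2.32 and 2.36 on the palmitic acid arrays, against 2.86, 2.69 and 2.73 on the FABP4 arrays. All palmitic acid arrays were below all FABP4 arrays, and the difference was -0.45 ± 0.06 (SE, adjusted p = 0.00221), but 2 further Ccnb1 probes gave -0.18 and -0.22. Tk1, the thymidine kinase of S phase, had -0.07, 0.02 and 0.06 on the palmitic acid arrays, against 0.50, 0.37 and 0.50 on the FABP4 arrays, a difference of -0.46 ± 0.07 (SE, adjusted p = 0.00544), but a second Tk1 probe gave -0.26 with an unadjusted p of 0.13. Ccnd3, cyclin D3, was lower at -0.31 ± 0.05 (SE, adjusted p = 0.0108). Other falls were 0.39 for Ccna2, 0.39 for the ribonucleotide reductase subunit Rrm2, 0.37 for Birc5 (survivin), 0.35 for the kinase Plk1, 0.31 for E2f2, 0.29 for the anaphase activator Cdc20, 0.25 for Ccnb2, and 0.22 each for the proliferation marker Mki67 and the checkpoint kinase Bub1b.

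The number of calls depended on the arrays used. Within slide 2, 6 of the 12 passed with a median of -0.13 for the list, and within row 1 Ccnb1, Tk1, Ccnd3, E2f2 and Birc5 passed with a median of -0.13. The falls numbered 6 without FABP4 replicate 1, 7 without FABP4 replicate 2 or 3, and 5, 6 and 5 without palmitic acid replicates 1, 2 and 3. They numbered 8, 8 and 6 without control replicates 1, 2 and 3 and 7, 7 and 8 without the arrays of both agents, and 2 with no scaling between arrays. Members that did not pass include Pcna, the sliding clamp of replication, at 0.03 (95% interval -0.17 to 0.22), the helicase cofactor Cdc45 at -0.03 (-0.27 to 0.20), and the helicase subunits Mcm2, Mcm3, Mcm4, Mcm5, Mcm6 and Mcm7, between -0.05 for Mcm2 and 0.05 for Mcm6. Of the motor and division genes outside the list, Kifc1, a kinesin of the mitotic spindle, had -0.04, 0.53 and 0.05 on the palmitic acid arrays, against 1.53, 0.73 and 0.86 on the FABP4 arrays. FABP4 array 1 was the highest by far, the difference was -0.86 ± 0.20 (SE, adjusted p = 0.0436), and within slide 2 it was -0.62 with an adjusted p of 0.0735. Kif15, another spindle kinesin, differed by -0.76 ± 0.16 (SE, adjusted p = 0.0259) and was well above background on 1 of 3 palmitic acid arrays. Cdca7, a division-associated gene, had -0.43, -0.40 and -0.17 on the palmitic acid arrays, against 0.47, 0.38 and 0.43 on the FABP4 arrays, a difference of -0.76 ± 0.09 (SE, adjusted p = 0.00166), and it passed in all 3 fits.

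The window upstream of Ccnb2 is shown because it carries 3 evenly placed CCAAT boxes, the element bound by NF-Y in many mitotic genes. Capitals mark CCAAT or its reverse complement ATTGG, and the window lies in GRCm38.p6 at chr9:70421555-70421804 on the minus strand.
Ccnb2: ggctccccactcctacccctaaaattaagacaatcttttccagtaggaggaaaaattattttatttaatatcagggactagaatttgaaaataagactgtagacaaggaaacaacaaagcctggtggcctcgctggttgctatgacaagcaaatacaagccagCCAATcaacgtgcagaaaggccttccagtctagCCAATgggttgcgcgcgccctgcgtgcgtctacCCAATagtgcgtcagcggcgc
The boxes begin at -87, -54 and -21. Of 11 genes that fell with a window in the table, 9 held CCAAT, as did 15 of 20 that did not pass, 40.4% of the tested genes and 33.8% of all windows. TTTGAA, the core of the cell cycle homology region, was in 4 of the 11 and 4 of the 20, and in 13.4% of tested genes.

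Some genes of lysosomes and of osteoclasts, the bone-resorbing relatives into which RAW264.7 cells can be driven, were higher in palmitic acid. Of 16 tested osteoclast genes 6 rose and 1 fell (43.8% called, median 0.19), and of 35 lysosome genes 4 rose and 0 fell (11.4% called, median 0.15, with 31 above 0), against 4.31% of all genes called. The osteoclast median shrank to 0.12 within slide 2 (6 rises, 0 falls) and to 0.07 within row 1 (4 rises, 0 falls). The lysosome median was 0.18 within slide 2 (4 rises) and 0.17 within row 1 (2 rises). Dcstamp, a membrane protein needed for cell fusion, had 3.65, 3.71 and 3.62 on the palmitic acid arrays, against 2.96, 3.11 and 3.04 on the FABP4 arrays. Its difference was 0.62 ± 0.06 (SE, adjusted p = 0.000652). Atp6v0d2, a proton pump subunit counted in both lists, had 0.00, -0.08 and 0.06 on the palmitic acid arrays, against -0.59, -0.70 and -0.71 on the FABP4 arrays, a difference of 0.66 ± 0.08 (SE, adjusted p = 0.0023). Car2, carbonic anhydrase 2, differed by 0.55 ± 0.06 (SE, adjusted p = 0.00104) and Ocstamp, a second fusion protein, by 0.51. These 4 passed in all 3 fits.

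Tcirg1, another pump subunit, was higher by 0.38 ± 0.06 (SE, adjusted p = 0.0111), and the chloride exchanger Clcn7 by 0.33. Neither passed within row 1 (adjusted p = 0.0859 and 0.104). Nfatc1, the master factor of the osteoclast, fell by 0.56 with all arrays and had an adjusted p of 0.0785 within slide 2. Over 7 osteoclast markers the summed level was 27.5 to 29.2 on palmitic acid arrays and 21.4 to 21.5 on FABP4 arrays, and 6 of the 7 were well above background on all 6 arrays, Calcr on none. The sum includes Dcstamp and Ocstamp, the called genes given above. Mmp9, alone among the tested markers, was lower in palmitic acid, at -0.34 (adjusted p = 0.142). In RNA of a whole culture, more cells of a kind and more RNA per cell cannot be told apart, and the part of such cells in the osteoclast counts was not tested. Ctsk and Acp5, the protease and phosphatase of resorption, differed by 0.25 (adjusted p = 0.0914) and 0.15 (adjusted p = 0.40). Gpnmb, a glycoprotein of lysosome-rich macrophages, had 6.34, 6.44 and 6.37 on the palmitic acid arrays, against 5.87, 6.01 and 5.93 on the FABP4 arrays, a difference of 0.44 ± 0.05 (SE, adjusted p = 0.00134) that passed in all 3 fits. Cd68, a lysosomal membrane protein, rose by 0.28 and did not pass within row 1. Lamp1 and Ctsd differed by 0.13 (adjusted p = 0.221) and 0.09 (adjusted p = 0.399).

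**Figure D4:**
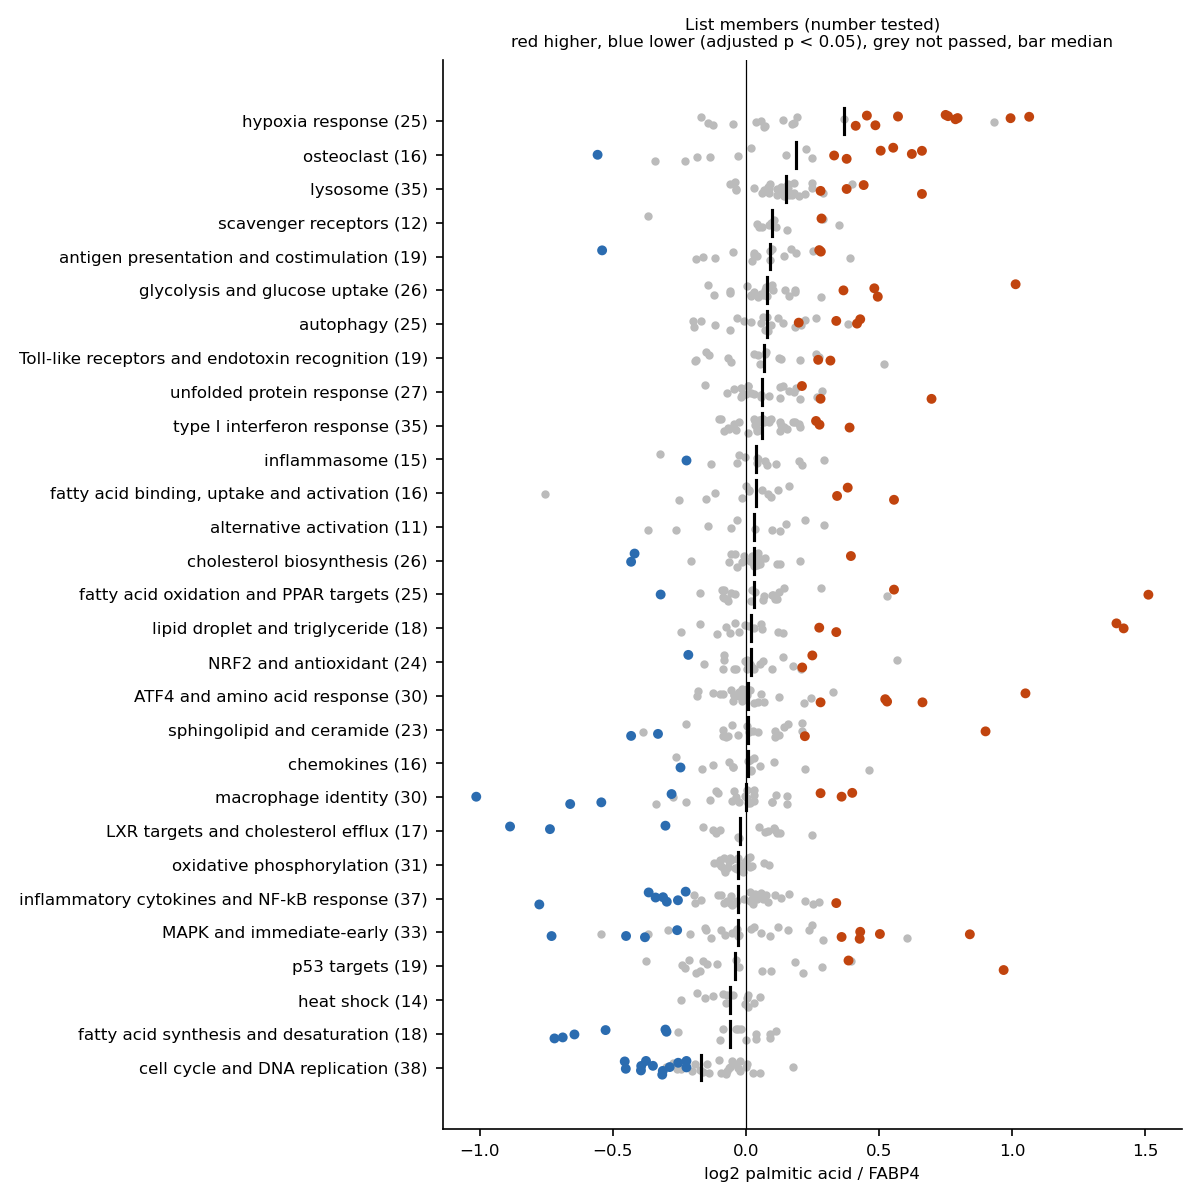
Each point is a tested gene, placed at its log2 difference between palmitic acid and FABP4 arrays, in each list of at least 10 tested genes, with the list's median as a black bar. Hypoxia (median 0.37) and osteoclast (0.19) lie at the top and the cell cycle (-0.17) at the bottom. Oxidative phosphorylation, heat shock and alternative activation have no coloured point.

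Autophagy genes gave 4 rises and 0 falls among 25 tested (median 0.08), with 1 fall under quantile normalization. Atg13, part of the kinase complex that starts autophagy, had 5.62, 5.70 and 5.75 on the palmitic acid arrays, against 5.30, 5.20 and 5.32 on the FABP4 arrays, a difference of 0.42 ± 0.05 (SE, adjusted p = 0.00261), and passed in all 3 fits. The cargo receptors Nbr1 and Sqstm1 differed by 0.43 ± 0.07 (SE, adjusted p = 0.0134) and 0.34 ± 0.06 (SE, adjusted p = 0.0125), and both passed within slide 2 and not within row 1. Nbr1 had an adjusted p of 0.051 without palmitic acid replicate 3.

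The macrophage identity list was split, with 3 of 30 rising and 4 falling and a median of 0.00. Pilra, an inhibitory receptor of myeloid cells, had 0.75, 0.82 and 0.96 on the palmitic acid arrays, against 1.88, 1.89 and 1.81 on the FABP4 arrays. All palmitic acid arrays were below all FABP4 arrays, and the difference was -1.01 ± 0.06 (SE, adjusted p = 4.19e-05), a fold of 0.496. Of 3 further Pilra probes, 2 gave -0.89 and -1.14 and 1 gave 0.17 with an unadjusted p of 0.449. Pilrb2, from the family of activating partners of Pilra, differed by -0.82 ± 0.14 (SE, adjusted p = 0.0116), and cross-hybridization between such related genes was not analysed here. Cx3cr1, the fractalkine receptor, had 2.28, 2.35 and 2.52 on the palmitic acid arrays, against 2.81, 3.03 and 2.94 on the FABP4 arrays, a difference of -0.54 ± 0.07 (SE, adjusted p = 0.00351) with -0.70 from a second probe. Trem2, a lipid-sensing receptor, was higher with 4.97, 5.08 and 5.11 on the palmitic acid arrays, against 4.77, 4.62 and 4.57 on the FABP4 arrays, a difference of 0.40 ± 0.06 (SE, adjusted p = 0.00853). Maf, a transcription factor, fell by 0.66 and Itgam (CD11b) by 0.28, and Cd300a rose by 0.36. Itgam and Cd300a did not pass within slide 2 (adjusted p = 0.0604 and 0.0629).

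In antigen presentation and costimulation 2 of 19 tested genes rose and 1 fell. Icosl, the ligand of the T cell receptor ICOS, had -0.27, -0.20 and -0.19 on the palmitic acid arrays, against 0.43, 0.27 and 0.27 on the FABP4 arrays, a difference of -0.54 ± 0.10 (SE, adjusted p = 0.0142). Tap1, a peptide transporter, and Cd274, which encodes PD-L1, differed by 0.28 ± 0.06 (SE, adjusted p = 0.0353) and 0.28 ± 0.06 (SE, adjusted p = 0.037). Icosl did not pass within row 1 (adjusted p = 0.0923) or without palmitic acid replicate 1 (0.0517). Tap1 passed neither within slide 2 (adjusted p = 0.0667) nor within row 1 (0.121), and the calls of Tap1 and Cd274 were lost in 9 and 10 of the 12 leave-outs, each with an adjusted p up to 0.118 without palmitic acid replicate 2. Among 12 scavenger receptors Cd68 alone passed, and of 11 alternative activation genes 0 passed, with 4 under an unadjusted p of 0.05 in limma and Egr2 nearest at -0.37 ± 0.10 (SE, adjusted p = 0.0799).

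Markers of other cell types gave 0 calls in limma among 3 dendritic, 2 adipocyte, 1 fibroblast, 4 lymphocyte and 3 neutrophil genes tested, with 0, 1, 1, 1 and 1 of them at an unadjusted p under 0.05. Retn, an adipocyte and myeloid marker, differed by -0.36 ± 0.10 (SE, adjusted p = 0.0763), and a second Retn probe gave -0.53 with an unadjusted p of 0.00181. Elane, neutrophil elastase, differed by 0.29 ± 0.12 (SE, adjusted p = 0.204) and Nkg7, a granule gene of lymphocytes, by 0.16 ± 0.07 (SE, adjusted p = 0.248). Of the defining markers, 1 of 5 adipocyte, 1 of 5 fibroblast, 1 of 4 dendritic, 2 of 4 neutrophil, 2 of 3 T cell and 1 of 3 B cell genes were well above background on all 6 arrays. Adipoq, Lep and Plin1 were detected on no array of either group. The summed fibroblast level was 0.32 to 1.71 on palmitic acid arrays and 0.22 to 0.31 on FABP4 arrays. Its tested member Col1a2 differed by 0.63 ± 0.18 (SE, adjusted p = 0.0787). Its levels were -2.30, -2.17 and -2.14 on the palmitic acid arrays, against -3.28, -2.63 and -2.61 on the FABP4 arrays. FABP4 array 1 was the lowest, and the difference was 0.415 within slide 2 and 0.384 within row 1. Of the other fibroblast markers, Dcn was well above background on 1 palmitic acid array, and Col1a1, Pdgfra and Thy1 on none. The wide range of the sum was not traced to single markers.

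Large rises were also found outside the lists. Dok7, an adaptor protein known from the nerve-muscle synapse, had 1.66, 1.67 and 1.60 on the palmitic acid arrays, against -0.17, -0.41 and -0.28 on the FABP4 arrays. The arrays of each group lay close together and the groups far apart, and the difference was 1.93 ± 0.07 (SE, adjusted p = 6.01e-07), a fold of 3.80 with a 95% interval of 3.43 to 4.21, and 2.01 within row 1. Lrrc32, which encodes GARP, the anchor of latent TGF-beta on cell surfaces, had -0.47, -0.44 and -0.19 on the palmitic acid arrays, against -2.17, -1.93 and -1.86 on the FABP4 arrays. The groups were separated by more than 1 unit, and the difference was 1.61 ± 0.12 (SE, adjusted p = 0.000138), with 1.44 within row 1. Gm13889, a predicted gene, had 0.35, 0.19 and 0.44 on the palmitic acid arrays, against -1.09, -1.33 and -1.37 on the FABP4 arrays, a difference of 1.59 ± 0.10 (SE, adjusted p = 6.35e-05). Crispld2, a secreted protein, had -1.26, -1.30 and -1.13 on the palmitic acid arrays, against -3.03, -2.67 and -2.36 on the FABP4 arrays, a difference of 1.46 ± 0.14 (SE, adjusted p = 0.000623). Tent5c, a poly(A) polymerase, had 0.49, 0.58 and 0.55 on the palmitic acid arrays, against -0.38, -0.69 and -0.73 on the FABP4 arrays and differed by 1.15 ± 0.11 (SE, adjusted p = 0.000508). These 5 passed in all 3 fits.

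Mgarp, a mitochondrial protein, and Rhov, a small GTPase, differed by 1.19 ± 0.21 (SE, adjusted p = 0.0135) and 1.16 ± 0.20 (SE, adjusted p = 0.0126), and neither passed within row 1 (adjusted p = 0.105 and 0.0513). Gm20736, named LOC380994 on the array, had levels of -1.40, -1.05 and -2.86 on the palmitic acid arrays, against -3.45, -3.84 and -4.09 on the FABP4 arrays. Palmitic acid array 3 stood well below the other two. The probe was well above background on 3 palmitic acid arrays, 1 FABP4 array, 1 array of both agents and 2 control arrays, so it entered the test only through the palmitic acid group and its difference is set against a level mostly not above background. The difference was 2.02 ± 0.45 (SE, adjusted p = 0.0362), with an adjusted p of 0.0599 within slide 2, and it was lost in 8 of the 12 leave-outs (up to 0.117 without palmitic acid replicate 2). Its probe lies on unplaced Y chromosome sequence in mm9, and cross-reading of related copies was not analysed here.

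Of the remaining large falls, Fpr1, the receptor for bacterial formyl peptides, had -0.04, -0.11 and 0.10 on the palmitic acid arrays, against 0.91, 0.60 and 0.73 on the FABP4 arrays, a difference of -0.76 ± 0.09 (SE, adjusted p = 0.00134). Akap12, a scaffold of protein kinase A, had -0.31, -0.35 and -0.32 on the palmitic acid arrays, against 0.56, 0.31 and 0.39 on the FABP4 arrays, a difference of -0.74 ± 0.07 (SE, adjusted p = 0.000682). N4bp3 differed by -0.86 ± 0.15 (SE, adjusted p = 0.0111). All 3 passed within slide 2 and within row 1. Tmem220, a membrane protein, and C030010L15Rik were well above background on 3 FABP4 arrays and on no palmitic acid array. Their folds were therefore estimated against the lowest signal well above background on each palmitic acid array, or the probe's own where higher. These estimates compare group means and leave out the spread among arrays, so they are not lower limits. Tmem220 was well above background on 1 array of both agents and 1 control array. It therefore entered the test only through the FABP4 group, and its difference is set against palmitic acid signals not above background. Tmem220 was 1.65-fold lower by the estimate from group means. Fitted to the measured signals, its fold was 0.541 with a confidence interval of 0.39 to 0.749 (adjusted p = 0.0453). It was lost in 9 of the 12 leave-outs and did not pass within slide 2 (adjusted p = 0.0625). C030010L15Rik was 1.5-fold lower by the estimate from group means. Its fitted fold was 0.574 with a confidence interval of 0.461 to 0.716 (adjusted p = 0.0143), and it passed in all 3 fits.

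The other 2 groups place these differences. Comparisons with control and with both agents share arrays with this one, so their values are given side by side only, and all control arrays were on slide 1 and all arrays of both agents on slide 2. For the 441 higher genes the median was 0.33 for palmitic acid minus control and -0.04 for FABP4 minus control, and for the 321 lower genes it was -0.34 and 0.01. The control mean lay nearer the FABP4 mean in 410 of the 441 and 310 of the 321 genes. The mean of cells given both agents lay nearer palmitic acid in 424 of the 441 and 278 of the 321.

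Single genes show the range. Plin2 averaged 8.38 ± 0.06 in palmitic acid, 6.96 ± 0.07 in FABP4, 8.33 ± 0.07 with both agents and 6.96 ± 0.08 in control cells (SD, n = 3 each). Cpt1a averaged 1.80 ± 0.03, 0.29 ± 0.05, 1.75 ± 0.04 and 0.43 ± 0.10 in the same order. Nr4a1 had 1.99, 1.92 and 2.19 in palmitic acid, 1.13, 1.13 and 1.30 in FABP4 and, between them, 1.57, 1.62 and 1.67 in control cells. Fabp3 was highest with both agents (4.04, 4.03 and 4.10), above palmitic acid alone (3.74, 3.79 and 3.88), FABP4 alone (3.54, 3.31 and 3.42) and control (3.21, 3.25 and 3.34). Dok7 averaged 1.64 ± 0.04 in palmitic acid, 1.55 ± 0.06 with both agents, -0.29 ± 0.12 in FABP4 and -0.18 ± 0.06 in control cells (SD, n = 3 each).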

How the data were processed

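Total RNA of RAW264.7 cells was measured on 12 one-colour Agilent arrays, 3 per group. Per the file headers, Feature Extraction 10.7.3.1 gave a background-subtracted processed intensity per spot, and the intensity files the authors deposited carry no scaling between arrays. The sources used here name no further step of the authors. The deposited value table matches these intensity values within 0.005.

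Each array held 59305 non-control spots, of which 42.8% to 46.7% were well above background and 0 saturated. Values were log2 intensity minus the array's 75th percentile. Outlier spots were dropped, which cost tested genes 10 array values, and spots of a probe averaged. A probe was kept if some group had it well above background on each of its 3 arrays (23911 of 55681), and the brightest probe stood for its gene. Accessions of 27325 probes (49.1%) matched RefSeq and took its symbols. Probe positions are mm9, and the upstream windows are RefSeq's, GRCm38.p6.

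Group means were fitted to all 12 arrays with limma 3.58.1 in R 4.3.3 (two-sided, Benjamini-Hochberg). A run on simulated data used independent noise per array without slide or row effects, so it cannot show error rates under the uneven layout here. The number of arrays limits precision: the median 95% half-width was 0.19. With each gene's group mean subtracted, same-numbered arrays of the 2 groups correlated at 0.169, 0.0526 and -0.0419 over the tested genes. The numbers were therefore not treated as pairs, though these correlations cannot show that no pairing exists. Named genes are Fabp4, the 10 largest rises and falls among called genes with no overlap and an official symbol in RefSeq's table (by accession or by the array's gene name), and 3 smallest p-values per list among called members (1 where none was called). Tent5c, Kif15, Akap12 and other list members were named after their values were seen. Some genes that the rule or a list holds are not reported here. The comparison and the 34 lists (781 genes) were chosen with earlier results of these data known. Alternatives covered scaling, background correction, filters, probe choice, slide and row blocks, moderation and leaving out each array. Figures were drawn with matplotlib 3.10.9.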

Additional observations from a re-analysis of the deposited data

How the results depend on the processing

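All 762 called genes kept their direction in each alternative that tested them except the mean of a gene's probes, where 755 did. The arrays of the 2 groups did not overlap for these genes. Their direction therefore could not turn where arrays were left out, slide, row or replicate was held fixed, or the moderation was changed. The count stayed between 510 and 1065 with slide as a fixed or random block (510 and 740), trended and robust moderation (1065), the percentile over detected probes (1029), quantile normalization (1019), the deposited value table (761), only probes detected on every array (858), the mean of probes (676) and normexp (837). The split was 504 higher and 525 lower with the percentile over detected probes and 501 and 518 with quantile normalization. It fell to 83 with only the 6 arrays of the 2 groups, 87 with slide 2 arrays and row as a block, 0 with the 4 arrays of 1 slide and row, 179 with no scaling, 194 with no filter on dim probes (35014 genes tested) and 11 against a minimum change of 0.5. Alternatives added after seeing the data gave 321 with slide and row as blocks over all 12 arrays and 20 with only the slide 2 arrays of the 2 groups. Fewer arrays and more genes tested are part of how some of these were built; otherwise the cause was not tested. Leaving out single arrays gave 374 to 646. The replicate block gave 490 genes, 285 higher and 205 lower. Of 85 called genes among the named, 59 passed whichever array was left out, 74 passed with slide as a block and 57 with slide and row. Slide as a fixed block and leaving out FABP4 replicate 1 are the same fit for this comparison, so these checks overlap. Leaving out a control array or an array of both agents changed the spread and not the differences. Itgax, a dendritic cell marker that was not called (0.09), turned to -0.02 in the 3 fits within slide 2 and row (adjusted p = 0.933 in 2 of them and 0.951 with 4 arrays).

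Separate cultures are not stated in the labels, array column and group cannot be told apart within the shared row, and FABP4 replicate 1 alone of its group was on the control slide. With 3 arrays a group, differences under the median half-width of 0.19 were not detectable for most genes. That width belongs to an unadjusted interval, and for most genes the adjusted threshold needed a larger difference still. Genes that did not pass are therefore not shown to be unchanged.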
